A study of Trichosurus vulpecula with 6 samples.

Results

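The 10 genes described here are the agouti-melanocortin pathway and the ligands of melanocytes in brushtail possum skin: ASIP, CPE, ATRN, MGRN1, GNAS, ADCY6, PRKACA, CREB1, KITLG and EDN3. They were chosen by name, and all 10 were among the 18038 RefSeq genes with an assembled transcript in the series. All 10 had a transcript in each of the 6 libraries. The libraries were made from ear punch skin of adult female common brushtail possums (Trichosurus vulpecula) from Dunedin, New Zealand, 3 with black fur and 3 with grey fur. The animals were untreated wild possums taken in pest control, so that the colours are naturally occurring and the animals were not bred on 1 genetic background. These libraries were sequenced to define the transcripts of the possum ASIP gene and to look at its level in skin of either colour. The authors also used them to screen a coding variant of ASIP. They reported only the variant allele in RNA of black possums, and the reference allele, alone or with the variant, in grey possums.

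The colour of a hair depends on which melanin the melanocyte at its base makes. The melanocortin alpha-MSH, cut from the precursor POMC, activates the receptor MC1R, which couples through the stimulatory G protein to adenylyl cyclase, cyclic AMP, protein kinase A and CREB and favours dark eumelanin. The agouti signalling protein ASIP opposes this at MC1R and favours yellow or red phaeomelanin, which bands the hair of agouti animals, while KITLG and EDN3 are signals from neighbouring cells on which melanocytes depend for their migration, survival and growth.

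Gene levels are in TPM (transcripts scaled to a fixed total), the authors' measure of abundance per length and per library, added over the transcripts of a gene. The libraries held 37988 to 51201 transcripts over 4.17 to 10.2 gigabases of aligned sequence, and 80.7% to 88.7% of TPM fell in RefSeq genes. All 10 melanocyte markers listed were assembled. Of the 8 keratinocyte markers 3 were measured (TP63, DSG1 and DSG3), with 941 to 1645 TPM of the desmosomal gene DSG1, and the keratins listed were not measured. The library of black 1 stood apart, with a sum of 2957 TPM over skeletal muscle markers against 3.97 to 7.18 TPM in the other 5 libraries. A fit across 15567 genes with limma on log2(TPM + 1) called 2 genes higher in black skin, 0.0128% of those tested, and 1 lower, 0.00642%. None of these 3 was one of the 10 pathway genes.

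None of the 10 genes passed limma's test between black and grey skin after adjustment over all genes (threshold 0.05), with or without the library of black 1. The smallest unadjusted p was 0.065, for ATRN, so that 0 of 10 were under 0.05 unadjusted, where 2.29% of all genes tested were, and the adjusted p was 1.00 for each of the 10. The black and grey values overlapped for all 10, where 6.36% of all genes tested had values that did not overlap between the colours, 4.09% with every black library above every grey one and 2.27% with every black library below. The median difference of the 10, black minus grey, was -0.09 on the log2 scale, and that of all genes tested was 0.04. In skin as a whole, fewer cells of a type and less RNA per cell cannot be told apart.

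**Figure D1:**
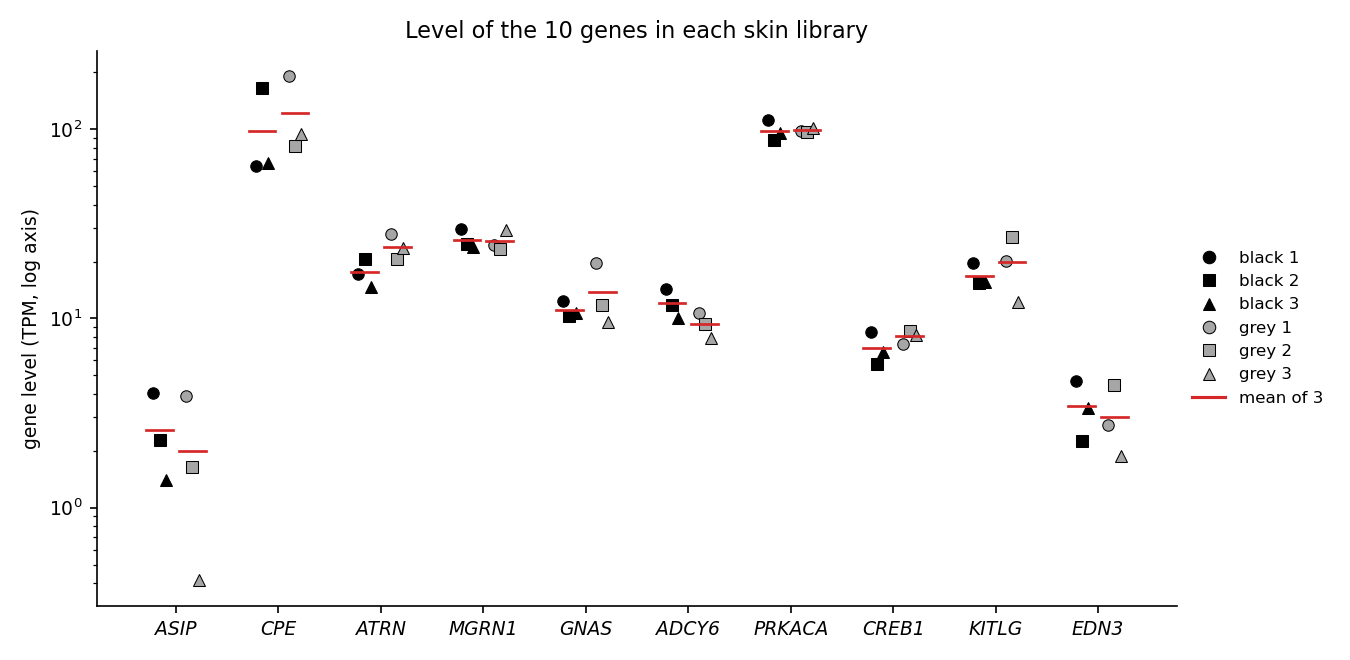
Level of the 10 genes in TPM, on a log axis, in each library. Black circles, squares and triangles are black 1, 2 and 3, grey ones are grey 1, 2 and 3, and red lines are means of 3. CPE and PRKACA had the highest means, 110 and 98.8 TPM, and ASIP the lowest, 2.28 TPM, and the colours overlap for every gene.

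The 10 genes were expressed at very different levels. In order of their mean over the 6 libraries they were CPE with 110 TPM, PRKACA with 98.8 TPM, MGRN1 with 26.0 TPM, ATRN with 20.8 TPM, KITLG with 18.3 TPM, GNAS with 12.4 TPM, ADCY6 with 10.7 TPM, CREB1 with 7.50 TPM, EDN3 with 3.23 TPM and ASIP with 2.28 TPM. Only between PRKACA and MGRN1 and between CREB1 and EDN3 did the values of neighbours in this order not overlap over the 6 libraries. The order is that of whole transcripts and depends on the measure. Over internal exons shared by all 6 libraries, GNAS had means of 27.4 TPM in black and 28.4 TPM in grey skin. Those of MGRN1 were 22.8 TPM in black and 23.3 TPM in grey skin. ASIP was above 9.14% of the genes tested in its mean level and CPE above 92.2%. The genes also differed in how far animals of 1 colour varied. The SD within a colour, on the log2(TPM + 1) scale, was 0.74 for ASIP and 0.71 for CPE, against 0.13 for PRKACA and 0.17 for MGRN1 and a median of 0.32 over all genes tested.

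ASIP, the inverse agonist of MC1R, lies on the plus strand at chr3:100479698-100483755 of the assembly mTriVul1.pri, with untranslated first exons that reach as far upstream as position 100433632. Its level was 4.05, 2.28 and 1.39 TPM in black 1, 2 and 3, against 3.88, 1.65 and 0.41 TPM in grey 1, 2 and 3. Each colour thus held 1 library near 4 TPM and 1 far below it, and the highest library was 9.84 times the lowest. The difference was 0.37 on the log2(TPM + 1) scale with a standard error of 0.53 (95% interval -0.88 to 1.62), and with 1 library left out it lay between -0.08 without grey 3 and 0.82 without grey 1. No single intron chain of ASIP was assembled in all 6 libraries, and the transcript of grey 3 was 367 nt long, against 1358 to 1660 nt for the most abundant transcript of black 1, black 2, grey 1 and grey 2. CORIN, a protease of the dermal papilla that in mouse limits agouti signalling, had 3.76, 3.51 and 3.27 TPM in black 1, 2 and 3, against 5.04, 1.83 and 2.49 TPM in grey 1, 2 and 3, with the black values inside the grey range. The 6 of 7 fibroblast markers that were assembled summed to 2401 to 2811 TPM in black skin and 996 to 3758 TPM in grey skin, lowest in grey 3 and highest in grey 1, the grey libraries in which ASIP was lowest and highest. In black 1, 2 and 3 the sums were 2811, 2401 and 2773 TPM, an order that ASIP did not share. Their part in the level of ASIP was not tested.

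CPE encodes carboxypeptidase E, which trims basic residues from peptide hormone precursors, melanocortins among them. It lies at chr6:83967334-84101321 on the minus strand. It had 64.1, 165 and 66.3 TPM in black 1, 2 and 3, against 192, 82.1 and 94.1 TPM in grey 1, 2 and 3. The values of black 2 and grey 1 stood at about the same height above the other 4, so the spread lay within the colours and not between them. The difference was -0.36 with a standard error of 0.46 (95% interval -1.45 to 0.74), and with 1 library left out it lay between -0.80 without black 2 and 0.02 without grey 1. A single chain of 9 exons made up the gene in every library apart from 1.57 TPM of a second chain in grey 3, so that high and low libraries had the same structure.

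The same pair of libraries was highest for Schwann cell and nerve markers. All 6 of these markers were assembled and none was at 0 in any library, and their sum was 256 to 445 TPM in black skin, the highest in black 2, and 193 to 654 TPM in grey skin, the highest in grey 1. S100B, a calcium-binding protein of Schwann cells that cartilage and melanocytes also make, gave most of it, with 176, 315 and 149 TPM in black 1, 2 and 3, against 448, 153 and 101 TPM in grey 1, 2 and 3. The part of these cells in the level of CPE was not tested.

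ATRN encodes attractin, a single-pass membrane protein that in mouse is needed for agouti to act and is mutated in mahogany animals. It lies on the plus strand at chr6:215280491-215523623. It had 17.3, 20.7 and 14.7 TPM in black 1, 2 and 3, against 27.9, 20.5 and 23.6 TPM in grey 1, 2 and 3. Grey skin was thus higher on average, and the colours overlapped only in that black 2, at 20.65 TPM, lay just above grey 2, at 20.55 TPM. The mean was 17.5 ± 3.00 TPM in black skin and 24.0 ± 3.69 TPM in grey skin (SD, n = 3 each), a difference of -0.43 on the log2 scale with a standard error of 0.20 (95% interval -0.90 to 0.04, exact two-sided permutation p = 0.2, where 0.1 is the smallest that 3 against 3 libraries allow). It lay between -0.55 and -0.32 with any 1 library left out, and was -0.42 when measured over the 27 internal exons that all 6 libraries shared. Of the 10 genes, ATRN had the smallest p, and it did not pass the adjustment over all genes.

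ATRN was assembled in 2 forms in every library. The longer, of 29 exons, runs to a last exon at the end of the gene, and the shorter, of 24 exons, ends in an extended exon of 734 to 780 nt that begins at position 215422451, well before it. The longer form made up 50.0%, 55.2% and 45.2% of ATRN in black 1, 2 and 3, against 38.2%, 35.2% and 49.1% in grey 1, 2 and 3. The means were 50.2% in black skin and 40.9% in grey skin, and the colours overlapped through grey 3 and black 3 (exact permutation p = 0.2). In TPM the longer form had 8.65, 11.4 and 6.64 in black 1, 2 and 3, against 10.7, 7.24 and 11.6 in grey 1, 2 and 3, which overlap widely. The shorter form had 8.14, 9.25 and 8.04 TPM in black 1, 2 and 3, against 17.2, 13.3 and 10.2 TPM in grey 1, 2 and 3 and did not overlap. Of the 8652 intron chains that were assembled in all 6 libraries and averaged 1 TPM or more, 2.33% had every black library below every grey one, and 3.56% every black library above. Since the form was looked at after the values of the gene were seen, no test is given for it. In human, attractin is made both as a membrane protein and as a secreted one from different transcripts. Whether the possum forms correspond to these was not tested.

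MGRN1 encodes mahogunin, an E3 ubiquitin ligase whose loss darkens the coat of mice, and lies on the minus strand at chr9:57148264-57263785. It had 29.9, 24.6 and 24.0 TPM in black 1, 2 and 3, against 24.5, 23.3 and 29.5 TPM in grey 1, 2 and 3. The colours spanned almost the same range, with a highest to lowest ratio of 1.28 over all 6 libraries. The difference was 0.02 with a standard error of 0.17 (95% interval -0.39 to 0.43), and over 16 shared internal exons it was -0.02.

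Both alternative exons of MGRN1 varied within the colours. A 66 nt exon was included in 92.1%, 86.1% and 97.2% of the TPM that could hold it in black 1, 2 and 3, against 85.9%, 97.7% and 80.4% in grey 1, 2 and 3 (exact permutation p = 0.6). A 45 nt exon was included in 21.0%, 3.99% and 12.6% in black 1, 2 and 3, against 14.1%, 15.5% and 19.6% in grey 1, 2 and 3 (exact permutation p = 0.5). The first was thus mostly kept and the second mostly left out in both colours.

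**Figure D2:**
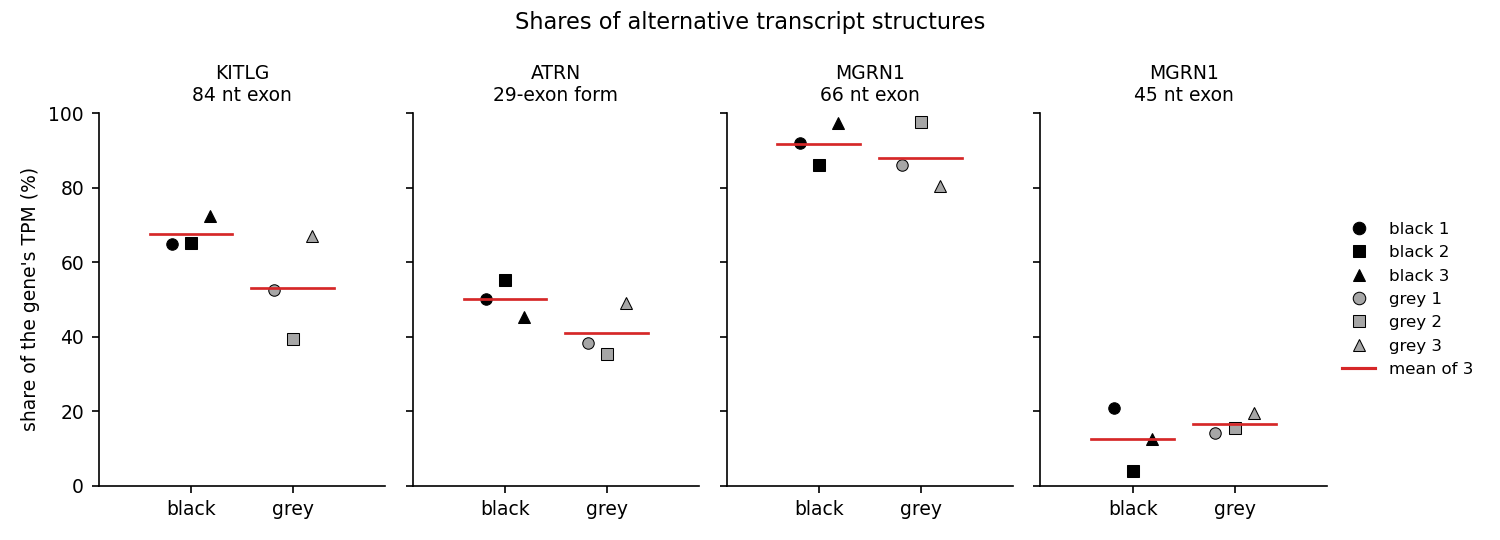
Share of a gene's TPM, in percent, that held the 84 nt exon of KITLG, ended as the 29-exon form of ATRN, or held the 66 nt or the 45 nt exon of MGRN1, in each black and grey library, with red lines for means of 3. The colours overlap in all 4 panels, and grey 3 lies with the black libraries for KITLG and ATRN.

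The other accessory and receptor genes could be read only in part. No transcript on either strand was assembled over MC1R, the receptor itself, at chr3:391791120-391792070, or over POMC, at chr3:208338915-208341914, in any of the 6 libraries. A gene with no assembled transcript can still be transcribed at a level too low for assembly, so that the level of the receptor was not measured.

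GNAS encodes the alpha subunit of the stimulatory G protein and lies on the minus strand at chr3:188337446-188630073. In TPM it had 12.4, 10.3 and 10.7 in black 1, 2 and 3, against 19.7, 11.8 and 9.62 in grey 1, 2 and 3. Grey 1 stood above the rest. The mean length of its GNAS transcripts, 4835 nt, was far below the 9174 to 12478 nt of the other 5 libraries, and the last exon of its main transcript was assembled over 4397 nt, against 7493 to 11103 nt elsewhere. TPM divides reads by this length. Measured instead over the 10 internal exons that all 6 libraries shared, GNAS had 29.3, 27.5 and 25.5 TPM in black 1, 2 and 3, against 26.4, 28.7 and 30.2 TPM in grey 1, 2 and 3. By this measure, which put 0 of the 8 genes that had such exons under an unadjusted p of 0.05 where 1.61% of all genes were, grey 1 was no longer high, the highest library was 1.19 times the lowest in place of 2.05 times, and the difference was -0.05 (standard error 0.15) in place of -0.23 (standard error 0.27).

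Most GNAS transcripts began at a common first exon whose 3′ end is at position 188524676, with 93.2%, 66% and 100% of the spliced TPM in black 1, 2 and 3, against 96.3%, 100% and 78.0% in grey 1, 2 and 3. A far first exon with its 3′ end at position 188629639 was seen in black 1, black 2 and grey 1 and carried 3.73% to 8.42% of the spliced TPM there. An unspliced transcript of 2.64 TPM in grey 1 is left out of these shares. In mouse and human the GNAS locus is imprinted and uses several first exons. The parental origin of these transcripts was not analysed here.

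ADCY6 encodes adenylyl cyclase 6, which makes cyclic AMP and is inhibited by calcium, and lies on the plus strand at chr5:277223400-277250475. It had 14.3, 11.8 and 10.1 TPM in black 1, 2 and 3, against 10.7, 9.35 and 7.88 TPM in grey 1, 2 and 3. The difference was 0.34 with a standard error of 0.21 (95% interval -0.15 to 0.83, exact permutation p = 0.2), and 0.22 without black 1. Over its 20 shared internal exons the direction was the opposite, with 7.23, 7.70 and 7.33 TPM in black 1, 2 and 3, against 8.02, 8.84 and 7.96 TPM in grey 1, 2 and 3. All black values lay below all grey values by this measure, for a difference of -0.14 with a standard error of 0.17 (adjusted p = 1.00 from limma, exact permutation p = 0.1, the smallest possible).

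The 2 measures of ADCY6 read different parts of the gene, and why their directions differed was not tested. In black 1 the most abundant transcript had 2 exons, at 6.93 TPM, and covered only the 3′ end, with a last exon of 4022 nt in its 5029 nt, and black 3 held 0.98 TPM of the same chain, while none of it was assembled in black 2 or in grey skin. The main chain of 22 exons had 2.14, 6.73 and 8.02 TPM in black 1, 2 and 3, against 10.7, 6.37 and 6.92 TPM in grey 1, 2 and 3. Of the libraries without the 2-exon chain, black 2 had 11.8 TPM over whole transcripts and 7.70 TPM over shared internal exons. By the same 2 measures grey 1 had 10.7 and 8.02 TPM, grey 2 9.35 and 8.84 TPM, and grey 3 7.88 and 7.96 TPM. ADCY6 was the only 1 of the 8 genes with shared internal exons whose colours did not overlap by that measure. Of the 11587 genes that could be measured that way 1.98% had every black library below every grey one, and 3.32% every black library above.

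**Figure D3:**
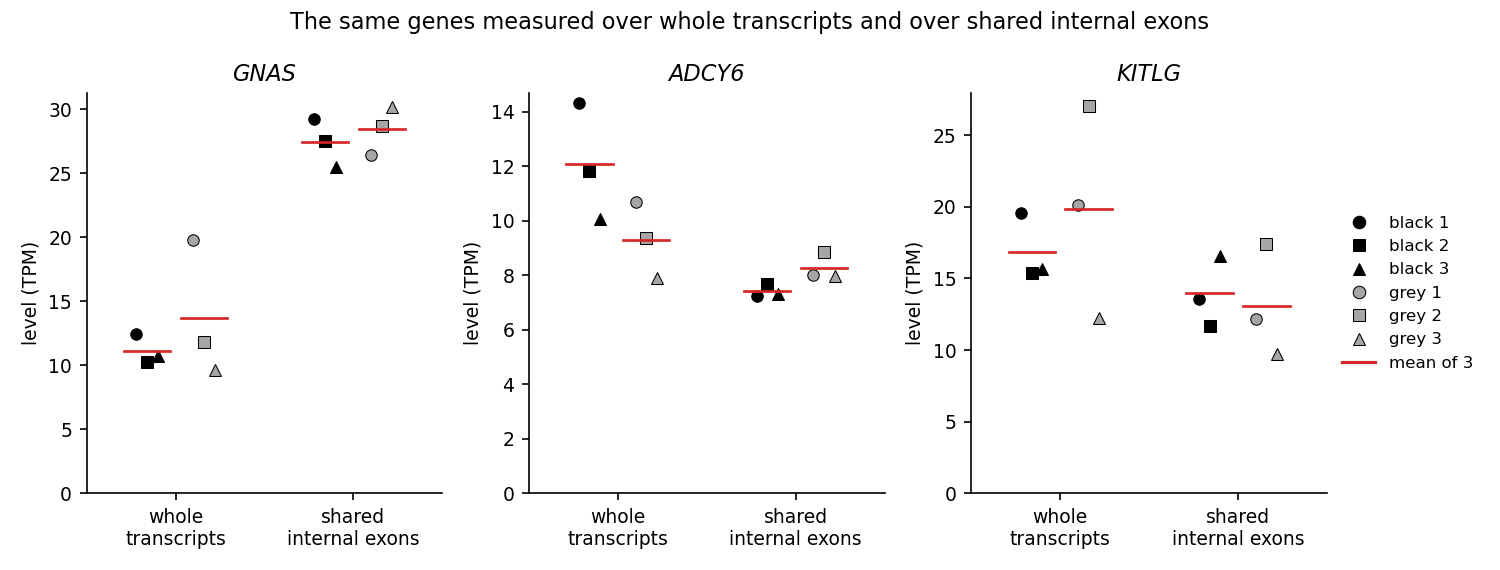
GNAS, ADCY6 and KITLG in TPM over whole transcripts, on the left of each panel, and over the internal exons that all 6 libraries share, on the right, with black libraries left of grey ones and red lines for means of 3. The 6 values of GNAS draw together from a 2.05-fold to a 1.19-fold range, and black skin is above grey on average for ADCY6 by the first measure and below it by the second.

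PRKACA encodes the alpha catalytic subunit of protein kinase A, which cyclic AMP releases, and lies on the plus strand at chr1:74666106-74686268. It had 112, 87.9 and 95.7 TPM in black 1, 2 and 3, against 98.6, 96.8 and 102 TPM in grey 1, 2 and 3. It had the smallest spread within a colour of the 10 genes on the log2(TPM + 1) scale, with a difference of -0.02 and a standard error of 0.15 (95% interval -0.37 to 0.34). Its transcripts began at a common first exon in 96.8%, 95.3% and 97.1% of the TPM in black 1, 2 and 3, against 85.6%, 96.4% and 97.1% in grey 1, 2 and 3, so that other first exons made up more of the gene in grey 1 than in the other 5 libraries.

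CREB1 encodes the transcription factor that protein kinase A phosphorylates, and lies on the minus strand at chr4:294002109-294073560. It had 8.51, 5.71 and 6.67 TPM in black 1, 2 and 3, against 7.31, 8.64 and 8.16 TPM in grey 1, 2 and 3. The colours overlapped through black 1, and the difference was -0.19 with a standard error of 0.21 (95% interval -0.69 to 0.30), or -0.10 over 6 shared internal exons. A chain of 8 exons was present in every library. A shortened form of 3 exons with its own 3′ end made up 23.4% of the spliced TPM in black 1, 19.9% in grey 2 (where an unspliced transcript of 0.73 TPM is left out) and 11.8% in grey 3, and none was assembled in the other 3 libraries.

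KITLG encodes the KIT ligand, also called stem cell factor, and lies on the plus strand at chr5:226533286-226651771. It had 19.6, 15.4 and 15.7 TPM in black 1, 2 and 3, against 20.2, 27.1 and 12.2 TPM in grey 1, 2 and 3. Both the highest and the lowest level were in grey skin, and the black values lay between them. The difference was -0.16 with a standard error of 0.29 (95% interval -0.86 to 0.53). Over 8 shared internal exons the values were 13.6, 11.7 and 16.6 TPM in black 1, 2 and 3, against 12.2, 17.4 and 9.74 TPM in grey 1, 2 and 3, for a difference of 0.11 (standard error 0.25), so that its direction turned with the measure. The transcripts of black 3 were the shortest, at 2732 nt on average against 4066 to 5254 nt in the other libraries.

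KITLG was assembled in every library both with and without an internal exon of 84 nt at chr5:226637053-226637136, the sixth of the 10 exons of its main form. In mouse and human the sixth exon of KITLG encodes the main site at which the protein is cut from the membrane, so that its inclusion sets the balance of soluble and membrane-bound ligand. Whether the possum exon does the same was not tested. Transcripts with the exon made up 64.8%, 65.2% and 72.3% of KITLG in black 1, 2 and 3, against 52.4%, 39.4% and 67.0% in grey 1, 2 and 3. The exon was thus in most of the transcript in 5 of 6 libraries, with means of 67.4% in black skin and 53.0% in grey skin (exact permutation p = 0.3).

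The coverage of the exon gave another picture of the same libraries. Relative to the mean coverage of the exons on either side, it was 88.5%, 95.7% and 104% in black 1, 2 and 3, against 84.8%, 102% and 63.9% in grey 1, 2 and 3 (exact permutation p = 0.4). By coverage grey 3 was lowest and grey 2 among the highest, whereas by assembled transcripts grey 2 was lowest and grey 3 among the higher. The order of the libraries therefore rested on the measure, and by neither did the colours separate. Of 19 shares of alternative exons, first exons and last exons that could be compared over the 6 libraries for the 10 genes, none separated the colours, and the smallest p after Benjamini-Hochberg adjustment of the exact permutation tests was 0.887.

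EDN3 encodes endothelin 3, which acts on melanocytes through EDNRB, and lies on the minus strand at chr3:187882824-187913806. It had 4.68, 2.24 and 3.37 TPM in black 1, 2 and 3, against 2.75, 4.45 and 1.88 TPM in grey 1, 2 and 3. The colours covered nearly the same range, and the difference was 0.15 with a standard error of 0.35 (95% interval -0.68 to 0.98). It was -0.05 without black 1, which held the highest value. A chain of 5 exons was assembled in all libraries but grey 1, the shallowest, where EDN3 was in 2 pieces of 2 exons each, so that no internal exon was shared by all 6 libraries.

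**Figure D4:**
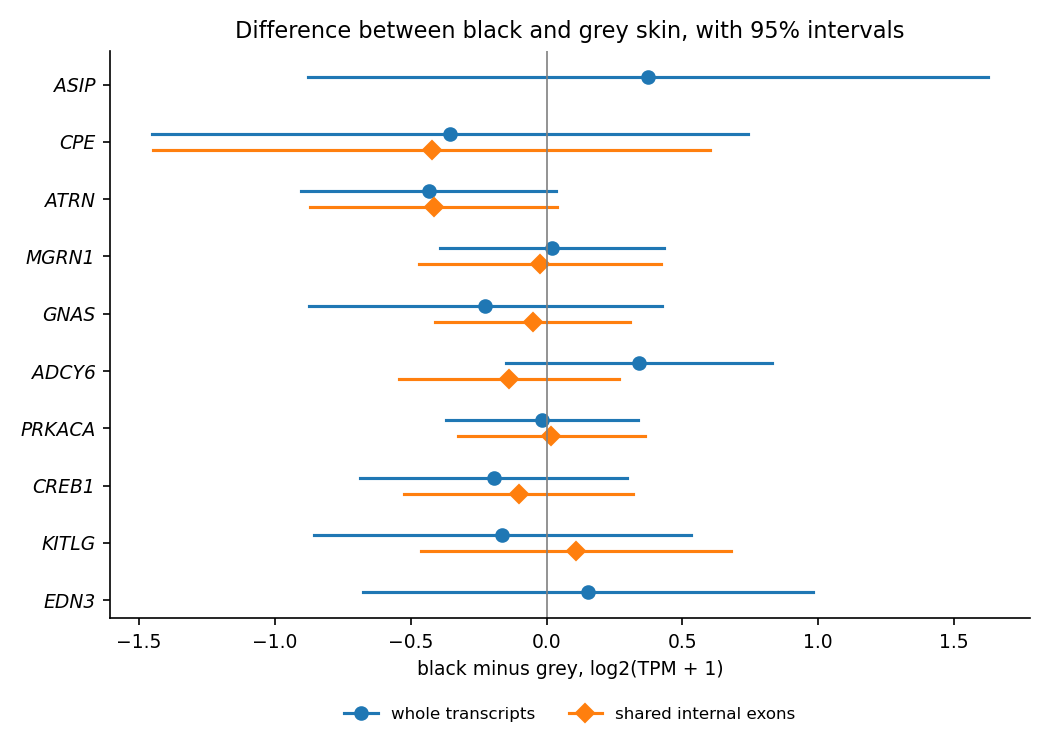
Black minus grey difference of each gene on the log2(TPM + 1) scale with its 95% interval from limma, for whole transcripts (blue circles) and for shared internal exons (orange diamonds, for the 8 genes drawn that have them). Every interval spans 0. That of ATRN, -0.90 to 0.04, reaches least far above it, and that of ASIP, -0.88 to 1.62, is the widest.

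The level of each gene was next set against that of ASIP in the same library, since agouti and the melanocortin signal oppose each other at 1 receptor. ATRN was 4.26, 9.04 and 10.5 times ASIP in black 1, 2 and 3, against 7.18, 12.5 and 57.3 times in grey 1, 2 and 3. PRKACA was 27.6, 38.5 and 68.7 times ASIP in black 1, 2 and 3, against 25.4, 58.8 and 248 times in grey 1, 2 and 3. For both, grey 3 stood far above all other libraries, which is the library with 0.41 TPM of ASIP. EDN3 was nearest to ASIP, at 1.15, 0.98 and 2.42 times in black 1, 2 and 3, against 0.71, 2.70 and 4.55 times in grey 1, 2 and 3.

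All 9 ratios were lower in black skin on average, and none separated the colours. On the log2 scale with 1 TPM added to each gene, the differences ran from -0.81 for ATRN to -0.04 for ADCY6, with exact permutation p from 0.3 to 0.9 and 0.9 for all after adjustment over the 9. That of ADCY6 turned to 0.12 when 5 TPM were added instead. The 9 ratios share the ASIP value of each library and so are not independent of each other. Without grey 1, 4 of the 9 ratios did not overlap between the colours, and without grey 3, 0 did. With 1 library fewer the colours separate more readily, and no share over all genes was computed beside these counts.

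**Figure D5:**
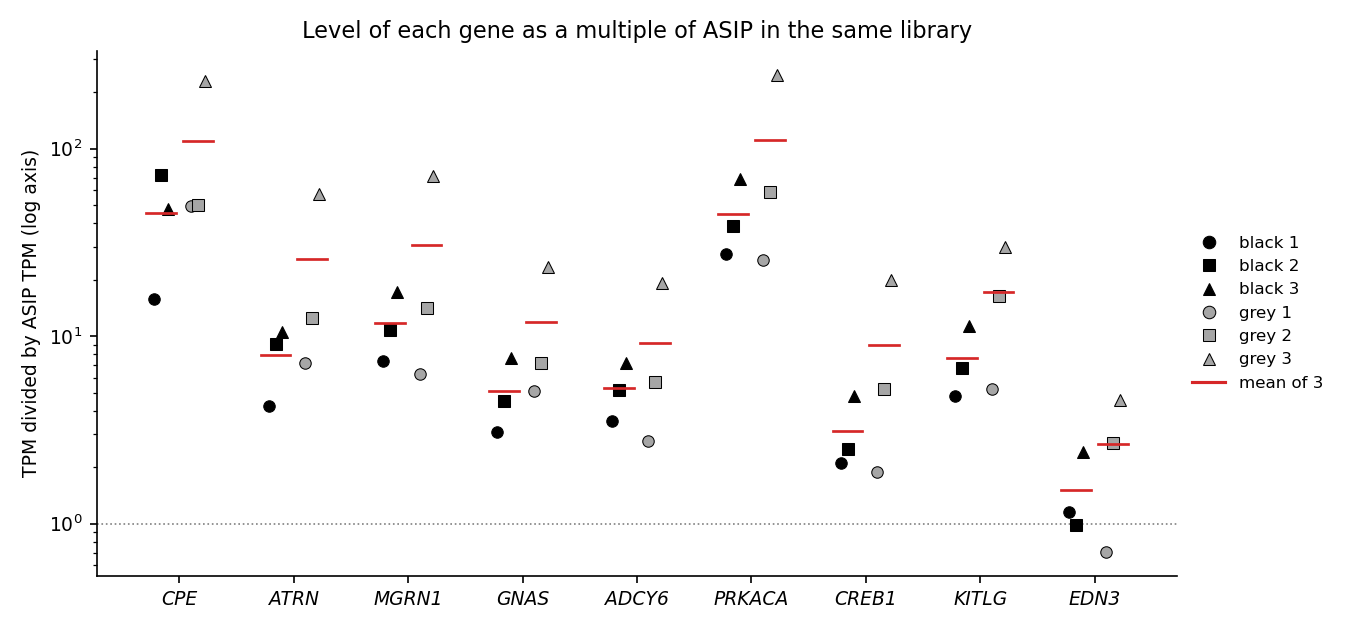
TPM of each gene divided by that of ASIP in the same library, on a log axis, with black libraries left of grey ones and red lines for means of 3. The triangle of grey 3 is the highest point for all 9 genes, and the dotted line marks equality with ASIP.

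Over the 6 libraries ADCY6 followed ASIP most closely in TPM, with a Pearson r of 0.86 (permutation p = 0.039, 0.35 after adjustment over 9 genes) and a Spearman rho of 0.89 (permutation p = 0.033). Without black 1 and grey 3, the libraries farthest from the median of ASIP, r was 0.47, so that the relation rested on them. With 1 library left out r was 0.71 to 0.97 for ADCY6, and that of KITLG, 0.53 over all 6, ran from 0.05 without grey 3 to 0.96 without grey 2, above ADCY6 there. For GNAS r was 0.71, with a rho of 0.77 (permutation p = 0.11 and 0.10), and r was 0.85 without the same pair of libraries. For the other 7 genes r lay between -0.10 and 0.53, and none of the 9 passed the adjustment. The correlations were repeated with the other genes measured over shared internal exons, while ASIP, which had none, stayed in whole-transcript TPM. The relation then turned to an r of -0.25 for ADCY6 (rho -0.26, permutation p = 0.63 and 0.66) and -0.30 for GNAS (rho -0.09, permutation p = 0.56 and 0.92). Without black 1 and grey 3, r was 0.08 for ADCY6 and -0.08 for GNAS. Over the 8 genes with such exons r lay between -0.35 and 0.22, with an adjusted permutation p of 0.96 for each. Among all genes tested, those whose pattern over the 6 libraries was most like that of ASIP by Pearson r were DTNA with 0.99, PSD3 with 0.99 and LOC118843851 with 0.99, given as a description over 6 libraries that differ in depth and cell content.

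The pathway around the 10 genes was read from 8 lists, which together held 87 genes, the 10 described above among them. Of these 72 had a transcript and 68 passed the filter of a mean of 1 TPM. No listed gene was called higher or lower by limma, and 1, HGF, had an unadjusted p under 0.05. The values of 3 of the 68, or 4.41%, did not overlap between the colours, against 6.36% of all genes tested, and all 3 were higher in black skin. Their median difference was 0.01, beside 0.04 for all genes.

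HGF, hepatocyte growth factor, a dermal growth factor for melanocytes, had 3.40, 3.30 and 5.24 TPM in black 1, 2 and 3, against 2.14, 2.39 and 2.06 TPM in grey 1, 2 and 3. Its difference was 0.62 with a standard error of 0.26 (adjusted p = 1.00 from limma), and 0.54 over shared internal exons, where the colours overlapped (1.32, 0.89 and 5.34 TPM in black 1, 2 and 3, against 1.39, 0.65 and 1.28 TPM in grey 1, 2 and 3). ARRB2, an arrestin that uncouples receptors, had 12.5, 12.4 and 24.3 TPM in black 1, 2 and 3, against 11.7, 11.5 and 10.6 TPM in grey 1, 2 and 3, with black 3 setting most of the gap. PRKACB, another catalytic subunit of protein kinase A, had 2.21, 2.53 and 2.49 TPM in black 1, 2 and 3, against 2.14, 2.09 and 1.29 TPM in grey 1, 2 and 3.

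Of the genes that make and trim melanocortins and endothelins, PAM, which amidates peptides, was near the level of CPE, with 104 to 129 TPM in black skin and 101 to 152 TPM in grey skin, a narrower range than that of CPE. The proprotein convertase FURIN had 40.7 to 52.3 TPM in black skin and 45.4 to 61.6 TPM in grey skin, and ECE1, which cuts the endothelin precursors, had 31.9 to 43.2 TPM in black skin and 25.2 to 50.2 TPM in grey skin. PCSK2, a convertase of neuroendocrine cells, had 3.03 to 3.84 TPM in black skin and 0.94 to 4.18 TPM in grey skin, and no transcript of PCSK1, which starts the cutting of POMC, was assembled.

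The inhibitory G protein subunits GNAI2 and GNAI3 were more abundant than GNAS in TPM. GNAI2 had 71.2 to 93.6 TPM in black skin and 73.7 to 85.3 TPM in grey skin. GNAI3 ranged from 37.2 to 125 TPM in black skin and from 35.9 to 92.8 TPM in grey skin over whole transcripts, with a difference of -0.05, and its difference over shared internal exons was 0.10. The regulatory subunit PRKAR1A had 169 to 175 TPM in black skin and 169 to 195 TPM in grey skin, and the inhibitor PKIB 7.64 to 22.5 TPM in black skin and 8.30 to 13.2 TPM in grey skin. Of 15 phosphodiesterases tested, PDE4B and PDE2A were the most abundant and PDE1A had the smallest p, with 2.38, 3.88 and 2.98 TPM in black 1, 2 and 3, against 4.69, 3.57 and 6.07 TPM in grey 1, 2 and 3 (difference -0.50, standard error 0.27). Beside CREB1, its relative ATF1 had 47.4 to 56.7 TPM in black skin and 41.5 to 51.5 TPM in grey skin.

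The receptors of the 2 melanocyte ligands did not separate the colours. KIT, the receptor of KITLG, had 4.23, 4.71 and 6.01 TPM in black 1, 2 and 3, against 6.29, 7.02 and 4.08 TPM in grey 1, 2 and 3. EDNRB, the receptor of EDN3, had 5.53, 5.60 and 9.59 TPM in black 1, 2 and 3, against 6.81, 9.77 and 4.29 TPM in grey 1, 2 and 3. In grey skin both receptors were highest in grey 2 and lowest in grey 3, as was KITLG. In black skin both receptors were highest in black 3 and lowest in black 1, whereas KITLG was highest in black 1. The fibroblast growth factor receptor FGFR1 had the smallest p of the receptors, with 63.2, 78.1 and 59.5 TPM in black 1, 2 and 3, against 115, 72.7 and 103 TPM in grey 1, 2 and 3, a difference of -0.51 with a standard error of 0.22 (adjusted p = 1.00 from limma).

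The melanocyte markers also varied between animals of 1 colour. Their sum was 173, 118 and 279 TPM in black 1, 2 and 3, against 91.8, 286 and 98.0 TPM in grey 1, 2 and 3, which puts black 3 and grey 2 highest, the libraries in which KIT and EDNRB were highest within each colour. Of the 10 markers 7 were highest in these same libraries, and MITF, OCA2 and SOX10 were not. Smooth muscle and pericyte markers were also highest there, with sums of 925 TPM in black 3 and 1387 TPM in grey 2. Of these 6 markers 4 were highest in both libraries, and RGS5 and PDGFRB were not. The sum of macrophage and dendritic cell markers was highest there too, with 199 and 97.4 TPM, as were 3 of the 6 assembled. KIT is also a mast cell marker, and that list summed highest in black 1 and grey 2. The part of melanocytes or of these other cells in the levels of KIT and EDNRB was not tested. PMEL, which forms the fibrils of the melanosome, had 55.9, 24.3 and 78.7 TPM in black 1, 2 and 3, against 18.3, 75.9 and 22.8 TPM in grey 1, 2 and 3. SOX10, a transcription factor of melanocytes and Schwann cells, was the 1 marker of the 10 whose colours did not overlap, where 6.36% of all genes tested did not, with 5.91, 7.80 and 6.11 TPM in black 1, 2 and 3, against 9.31, 9.67 and 10.7 TPM in grey 1, 2 and 3 (difference -0.52, standard error 0.19, adjusted p = 1.00 from limma). Over its shared internal exons the colours overlapped, with 3.09, 6.53 and 5.63 TPM in black 1, 2 and 3, against 8.30, 8.29 and 5.40 TPM in grey 1, 2 and 3 (difference -0.48).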

How the data were processed

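Poly(A) libraries of ear punch skin from 3 black and 3 grey possums, 1 animal each, were compared. Reads were processed by the authors with Trim Galore (version 0.6.10) and HISAT2 (version 2.2.1), and each library was assembled with StringTie (version 2.2.0). The deposited values are text attributes of other units, coverage, FPKM and TPM, and not counts. Transcripts were assigned to RefSeq genes of mTriVul1.pri by exon overlap on the same strand, with gene exons inferred from the assemblies, and TPM was added per gene. A single-exon gene in the long intron of ASIP was kept apart. Black was compared with grey by limma (version 3.58.1, R version 4.3.3, trend fitted) using log2(TPM + 1), which understates changes of low genes, keeping genes that averaged 1 TPM or more, and single values by exact two-sided permutation (20 assignments). A second measure, chosen after seeing the data, averaged coverage over internal exons assembled with the same ends in all 6 libraries, scaled to TPM. The fit was tested on simulated data. Differences are black minus grey. Named genes were the 10 members and, of each list, the 2 most abundant and the 1 of smallest p, with MC1R, POMC, KIT and EDNRB; some are printed. ARRB2, PRKACB, CORIN, PCSK1 and PCSK2 were named after their values were seen. The members and lists were chosen with earlier results of these data known.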

Additional observations from a re-analysis of the deposited data

How the results depend on the processing

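The 10 genes and the listed genes had 0 calls under every alternative run, including each library left out. A fit with a replicate block gave 0 of the 10 genes called and 0 genes higher and 0 lower of all tested. The numbers of the possums only name them, and the correlations of same-numbered libraries were -0.02, 0.02 and -0.06. Over all genes, the 2 higher and 1 lower became 1 and 1 with a pseudocount of 0.1, 0 higher with a mean of at least 5 TPM, 1 higher with transcripts of at least 2 exons, 1 and 0 with coverage per aligned gigabase, and 0 and 0 with shared internal exons. Leaving out 1 library gave 0 to 2 higher and 0 to 2 lower. Differences that turned were MGRN1 to -0.017 (upper-quartile scaling), -0.058 (scaling to protein-coding genes without muscle markers) and -0.024 (shared internal exons), PRKACA to 0.0007 (coverage per gigabase) and 0.017 (shared internal exons), ADCY6 to -0.14 and KITLG to 0.11 (shared internal exons) and EDN3 to -0.015 (library weights). With 1 library left out, log2 differences that changed sign ranged over ASIP -0.075 to 0.82, MGRN1 -0.075 to 0.12, GNAS -0.43 to 0.051, PRKACA -0.11 to 0.061, CPE -0.80 to 0.016, KITLG -0.46 to 0.086, EDN3 -0.067 to 0.39. Of ratios to ASIP, that of ADCY6 turned to 0.12 with a pseudocount of 5 and 0.075 with coverage per gigabase, and that of EDN3 to 0.61 with coverage per gigabase. A pseudocount of 5 left 2 of the 9 not overlapping, and leaving out 1 library 0 to 4, with ranges of MGRN1 -0.83 to 0.19, ADCY6 -0.39 to 0.31, PRKACA -0.84 to 0.080, EDN3 -0.69 to 0.016. The correlations with ASIP ranged over ATRN -0.45 to 0.50, MGRN1 -0.69 to 0.70, PRKACA -0.41 to 0.59, CREB1 -0.37 to 0.25, CPE -0.12 to 0.69, KITLG 0.053 to 0.96, EDN3 0.0084 to 0.66. Over shared internal exons (chosen after seeing the data), with ASIP kept in TPM, they turned to -0.30 for GNAS, -0.25 for ADCY6 and -0.029 for PRKACA, none past adjustment. The 45 nt exon of MGRN1 ranged from -8.12 to 0.37 percentage points, and 0 to 2 of the 4 structure shares named did not overlap when 1 library was left out (2 without grey 3). The cause was not tested, and no share over all genes was computed beside these counts of ratios and structure shares. An alternative with only genes named in the deposited files was not run, since no transcript of the 10 genes carried such a name. Summed coverage was lowest for ASIP (2.21 to 15.4) and EDN3 (5.91 to 18.3), where depth limits the values most.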

Other observations

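A few transcripts lay within the genes described but did not belong to them. In the long intron of ASIP, on the same strand, a single-exon gene of 192 nt (LOC118841019) at chr3:100454234-100454425 had 1.27, 0.99 and 0.87 TPM in black 1, 2 and 3, against 0.64, 0.79 and 0.70 TPM in grey 1, 2 and 3, so that every black library lay above every grey one, as for 4.09% of all genes tested. It averaged less than the 1 TPM needed to be tested itself. Counted as ASIP, as a rule on overlap alone would do, it changed the ASIP difference only to 0.38 on the log2 scale. On the strand opposite to MGRN1, an unspliced transcript at chr9:57237254-57237584 that belonged to no RefSeq gene had 76.1 and 85.7 TPM in black 2 and 3, against 59.3, 84.7 and 52.5 TPM in grey 1, 2 and 3. It was listed at 0 in black 1 and exceeded MGRN1 itself in the other 5 libraries. Opposite to EDN3, an unassigned transcript was assembled in 4 libraries, at 0.25 to 0.89 TPM.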
